A study of Homo sapiens with 6 samples.

Results

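The HOX gene clusters A to D are 4 stretches of the human genome that hold the HOX genes side by side. HuR sites were taken from every deposited list where an interval, on either strand, lay fully inside 1 of 4 windows on hg19: HOXA at chr7:27130000-27250000, HOXB at chr17:46600000-46810000, HOXC at chr12:54330000-54450000 and HOXD at chr2:176950000-177060000. The windows held 186 of 186157 sites in replicate 1, 244 of 405048 in replicate 2 and 314 of 550681 in replicate 3. They held 418 of 658853 sites in the list made from the 3 replicates combined, and 223 of 373845 in a further list for all replicates that the authors had limited by a p threshold. The choice of the windows used position only, and no score.

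The material was HEK293, an established human embryonic kidney line, with no transgene, treatment or time course named in the labels. DO-RIP-seq digests cell lysate with micrococcal nuclease, recovers the RNA fragments bound by a protein with an antibody, and sequences them. The labels name 3 immunoprecipitations with the HuR antibody 3A2 and 3 with normal mouse serum antibodies as negative control. Only lists of the HuR samples were used, and values of the control samples are not analysed here. Per the labels' protocols digested lysate was pooled and then shared out over the reactions, so the spread between replicates may be technical only. Read depth per library is unknown. Each site carries the authors' LOD score, whose log base no label or header states, so a score is expressed below as its percentile among all sites of its own list, where 50 is the middle of the list.

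HOX genes encode homeobox transcription factors that lay out the body axis of the embryo, and within a cluster the genes stand in the order in which they act along that axis. In many cell lines part of the HOX genes remain active. HuR, the product of ELAVL1, binds U-rich and AU-rich RNA, often in introns and in the untranslated ends of messenger RNAs, and is known for stabilising many of its targets. The clusters also carry microRNA genes of the miR-10 and miR-196 families and long noncoding RNAs read from the opposite strand, such as HOTAIR in HOXC, HOTAIRM1 in HOXA and HAGLR in HOXD.

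The 38 genes followed here were all found in the GENCODE release 29 and RefSeq annotations of GRCh38, which were used for names, strand and order only. The 10 HOXA genes and the 10 HOXB genes are read from the minus strand, and the 9 HOXC genes and the 9 HOXD genes from the plus strand. From low to high coordinate the order runs from HOXA2 to HOXA13, from HOXB1 to HOXB13, from HOXC13 down to the neighbours HOXC4, HOXC5 and HOXC6, and from HOXD13 to HOXD1. Because that annotation is on another build than the sites, no single site was assigned to a gene, an exon or an intron. "HOX strand" below means the strand from which the HOX genes of the cluster are read.

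The sequences of the sites were not read, for the same reason, but the transcripts of the 38 genes could be searched for the kind of RNA that HuR is known to bind. Of the 38, 35 (92.1%) contained ATTTA, the core of AU-rich elements, in their longest coding transcript, and HOXA2, HOXB6 and HOXD9 did not. Among all 19669 coding genes 76.7% contained it. A run of TTTTT was present in 34 (89.5%), against 83.1% of all coding genes, and was missing in HOXA6, HOXB5, HOXD3 and HOXD4. Both motifs were searched on the transcript strand only, and the HOX transcripts were shorter, with a median of 1982 nt against 2934 nt. Per length, the median HOX transcript held 1.14 ATTTA and 2.99 TTTTT per kb, against 0.94 and 2.31 for all coding genes, with overlapping matches counted. By cluster, the median of HOXC lay below all coding genes in ATTTA, at 0.83 per kb, and that of HOXB in TTTTT, at 2.05 per kb. The other clusters lay above in each motif. HOX transcripts were not richer in T as a whole, with a median of 22.0% T against 24.7%, and the most T in any 30 nt had a median of 18 in both. TTTTT was densest in HOXA5 with 13.9 per kb, HOXC11 with 11.7, HOXA3 with 11.2 and HOXB3 with 10.2. ATTTA was densest in HOXA4 with 3.43 per kb and HOXC6 with 3.40. As examples, 1 stretch of 30 nt is printed per cluster, given as DNA letters with TTTTT and ATTTA in capitals. It is the most T-rich stretch among the members of the cluster that the RefSeq promoter table also holds, 20 of 38 in all. Members left out by that limit reached more T in 30 nt, with 28 in HOXA5, 22 in HOXB3 and HOXB8, and 25 in HOXC11. The printed stretches therefore do not compare the clusters. They come from the GENCODE transcripts, and no deposited site is tied to them.
HOXA3: TTTTTTctttggttgcTTTTTTTTTTTTTT
HOXB1: tcctcctttcccttccaacttgggtttatt
HOXC4: tatatatatatataggttcttttctctctt
HOXD10: tttgtttgttgttttgttgtattttgtttt
The HOXA3 stretch holds 25 T and lies at positions 1718 to 1747 of a transcript of 3396 nt, and 7.27% of all coding genes have a stretch with at least as many. The HOXD10 stretch holds 23 T, at positions 1389 to 1418 of 1989 nt, and is broken up by G so that no TTTTT occurs, a count that 14.2% of coding genes reach. The HOXB1 stretch, at positions 1333 to 1362 of 2024 nt, holds only 14 T, a count that 88.7% of coding genes reach. No member of the 38 had a lower count. The HOXC4 stretch, with 17 T at positions 935 to 964 of 1666 nt, is ordinary, since 67.0% of coding genes reach this count.

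All 4 clusters were denser in HuR sites than the genome as a whole, HOXA and HOXD the most. HOXA held 69, 75 and 96 sites in replicates 1, 2 and 3, which was 9.55, 4.77 and 4.49 times the sites per kb of the same list, a mean of 6.27 ± 2.84 (SD, n = 3). HOXD held 48, 67 and 78 sites, or 7.25, 4.65 and 3.98 times, a mean of 5.30 ± 1.73. HOXB held 50, 70 and 96 sites, or 3.96, 2.55 and 2.57 times, a mean of 3.02 ± 0.81. HOXC was the sparsest with 19, 32 and 44 sites, or 2.63, 2.04 and 2.06 times, a mean of 2.24 ± 0.34. Every cluster lay above 1 in each replicate. The order HOXA, HOXD, HOXB, HOXC was the same in each replicate, but neighbours in that order were not equally far apart. HOXA exceeded HOXD by 2.30, 0.12 and 0.51, a mean of 0.98 ± 1.16, so this difference was within the spread between replicates. HOXD exceeded HOXB in every replicate (HOXB minus HOXD was -2.27 ± 0.95), and HOXB exceeded HOXC by 0.78 ± 0.47. With 3 replicates the smallest p that an exact sign-flip test (two-sided) allows is 0.25, and none is printed for these comparisons. The ratios take no account of gene density or transcript abundance. Against the density of its own chromosome the mean was 1.54 for HOXB and 1.77 for HOXC, and HOXB then came last.

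**Figure D1:**
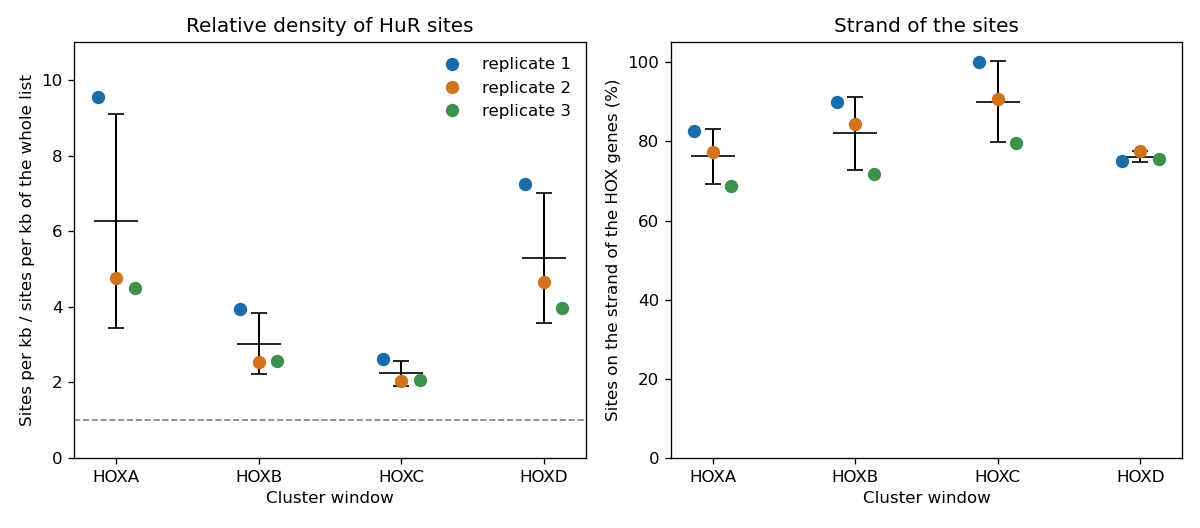
Left, HuR sites per kb in each cluster window divided by sites per kb of the same whole list (dashed line, 1). Right, percent of the sites on the strand of the HOX genes. Points are the 3 replicates and bars the mean ± SD. All points on the left lie above 1, with replicate 1 the highest in each cluster, and HOXC reaches 100% on the right in replicate 1.

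Replicate 1, the smallest list, gave the highest ratio in each cluster. In counts of sites the order was the reverse, with replicate 1 lowest and replicate 3 highest in every window. The 4 windows together held 33.2, 43.6 and 56.1 sites per 100 kb in replicates 1, 2 and 3, against 6.02, 13.1 and 17.8 over the genome. The number of HOX sites thus differed less between replicates than the size of the lists.

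The surroundings of HOXA were nearly free of sites, and those of HOXD were not. In stretches of the same length next to the windows, the combined list had 1 site below and 2 above HOXA, where the window itself had 129. It had 0 below and 15 above HOXC, beside 58 in the window. HOXB had 5 below and 113 above, beside 126. HOXD had 78 below and 84 above, beside 105. All 84 sites above HOXD lay on the plus strand, and the median percentile was 60.04 below and 61.6 above, against 24.2 in the window. These flanks were chosen after the data were seen.

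Most sites lay on the HOX strand in every cluster. In HOXC the share was 100% in replicate 1, 90.6% in replicate 2 and 79.5% in replicate 3 (mean 90.1% ± 10.2, SD, n = 3). HOXB had 90%, 84.3% and 71.9%, a mean of 82.1% ± 9.27. HOXA had 82.6%, 77.3% and 68.8%, a mean of 76.2% ± 6.99, and HOXD had 75%, 77.6% and 75.6%, a mean of 76.1% ± 1.36. HOXA minus HOXC was -17.4, -13.3 and -10.8 percentage points, a mean of -13.8 ± 3.33, a difference larger than its spread. HOXA and HOXD differed by 0.15 ± 7.26 points, less than the spread. In HOXA, HOXB and HOXC the share was highest in replicate 1 and lowest in replicate 3, the smallest and the largest list. In the combined list the 4 clusters came closer together, with 72.9% (95% Wilson interval 64.6 to 79.8), 75.4% (67.2 to 82.1), 75.9% (63.5 to 85.0) and 81.0% (72.4 to 87.3) for HOXA, HOXB, HOXC and HOXD. The intervals cover counting error only and overlap each other.

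The other strand was not empty. It carried 12, 17 and 30 sites of HOXA, 5, 11 and 27 of HOXB, 0, 3 and 9 of HOXC and 12, 15 and 19 of HOXD in replicates 1, 2 and 3. Bases called in all 3 replicates on that strand came to 430 nt in HOXA, 385 nt in HOXD, 80 nt in HOXB and 0 nt in HOXC. Sites on both strands within 10 kb were common in HOXA. Of the 25581 windows of 10 kb in the genome with at least 10 combined sites, 10.1% had more than 10% of them on the lesser strand. HOX windows with at least 10 combined sites numbered 18 of the 52 with any. In the genome 29.5% of the windows with a combined site had at least 10. Of the 18, 10 had such a mixture of strands: 6 of 8 in HOXA, 2 of 5 in HOXB and 2 of 5 in HOXD. None of the 12 windows in HOXC reached 10 sites. At chr7:27130001-27140000, the low end of HOXA, 8 sites lay on each strand.

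Sites that overlapped a site on the opposite strand made up 19 of 129 combined sites in HOXA and 7 of 105 in HOXD, with 0 of 126 in HOXB and 0 of 58 in HOXC. In the whole combined list the share was 0.887%. The 26 sites formed 16 pairs that shared 5 to 75 nt. In 4 pairs both partners overlapped all 3 replicate lists, 3 of them in HOXA at 9 to 10 kb from the low end of the window. The longest overlap, 75 nt, lay in HOXD, where the plus-strand site at chr2:176996676-176996905 covered the whole of the minus-strand site at chr2:176996716-176996790.

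HOX sites scored low within the replicate lists. For the 4 clusters together the median percentile by replicate was 37.2, 34.3 and 37.5 (mean 36.4 ± 1.75, SD, n = 3), below the middle of the list in each. HOXD had the lowest mean, 26.3 ± 6.59, from 23.8, 33.8 and 21.3, but in replicate 2 HOXB was lower. HOXB had 36.8, 26.4 and 36.1, a mean of 33.1 ± 5.84, and HOXC had 38.4, 36.3 and 39.9, a mean of 38.2 ± 1.85. HOXA was highest at 41.8, 41.5 and 50.2, a mean of 44.5 ± 4.94, and in replicate 3 it did not lie below the middle. HOXA exceeded HOXD by 17.9, 7.72 and 28.9 points. HOXB and HOXD differed by 6.79 ± 12.3 points, within the spread. In the combined list the medians were 37.1, 34.9, 33.9 and 24.2 for HOXA, HOXB, HOXC and HOXD. The p-limited list gave another order, with 56.7 in HOXA and 50.6 in HOXD, both above its middle, and 36.5 in HOXB and 35.8 in HOXC, while all its HOX sites together had 42.2.

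The low medians came with many sites at the very bottom of the score range, while the top was filled about as in the whole list. Sites below percentile 10 made up 38 of 186 HOX sites in replicate 1, 79 of 244 in replicate 2 and 88 of 314 in replicate 3, or 20.4%, 32.4% and 28.0%, against 10.0% of each whole list. In the combined list they were 129 of 418, or 30.9%, against 10.7%. In the p-limited list they were 39 of 223, or 17.5%, against 10.0%. By cluster those of the combined list were 44 of 129 in HOXA, 44 of 105 in HOXD, 28 of 126 in HOXB and 13 of 58 in HOXC. Sites above percentile 90 made up 8.60%, 10.2% and 10.2% of HOX sites in replicates 1, 2 and 3, against 10.0%. Within the replicates HOXC had the highest share of these, at 15.8%, 15.6% and 15.9%, from 3, 5 and 7 sites, and HOXD the lowest, at 6.25%, 7.46% and 6.41%. The other lists did not keep that order. In the combined list the share was 10.1% in HOXA, 10.3% in HOXB, 10.3% in HOXC and 2.86% in HOXD, against 10.0%. In the p-limited list it was 14.7%, 8.96%, 17.2% and 15.4%, against 10.0%. HOX sites were about as wide as others, their median width being 50, 60 and 50 nt where the lists had 45, 55 and 50 nt. They were not more crowded: a HOX site had on average 2.12, 2.08 and 2.04 other sites within 1 kb on its strand, against 2.17, 2.89 and 3.10 for all sites.

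**Figure D2:**
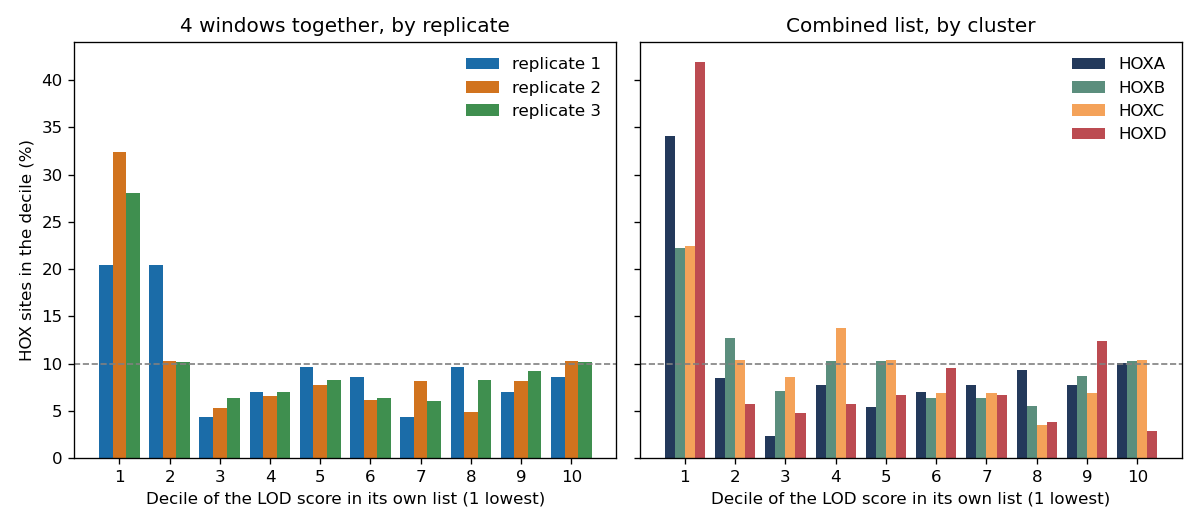
Percent of HOX sites in each decile of the score in their own list (dashed line, 10%, the share of the whole list apart from ties). Left, the 4 windows together in each replicate. Right, each cluster in the combined list. The lowest decile holds 20.4% to 32.4% of HOX sites on the left and 41.9% of HOXD sites on the right.

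In shares not adjusted for list size, HOX sites recurred between replicates more often than other sites of the 2 larger lists. They recurred less often than other sites of the smallest. In replicate 2, 132 of 244 HOX sites (54.1%) overlapped a site of both other replicates by at least 1 nt, against 37.8% of the list. In replicate 3, 138 of 314 (43.9%) did, against 28.4%. In replicate 1, 150 of 186 (80.6%) did, against 89.1%. The difference from the list was -8.49, 16.3 and 15.6 percentage points (mean 7.79 ± 14.1, SD, n = 3), so it had no common direction. These shares depend on list size, since a replicate 2 or 3 site needs a replicate 1 partner to match both others. Replicate 1 held 186 HOX sites beside 244 and 314, but 186157 sites beside 405048 and 550681 in the whole lists. Without an adjustment for this, the shares do not show that HOX sites are more reproducible. The cluster means differed by less than their spread, with 60.3% ± 15.9 in HOXA, 59.4% ± 20.9 in HOXB, 56.9% ± 24.6 in HOXC and 60.8% ± 18.0 in HOXD. The largest mean difference between clusters, HOXC minus HOXD, was -3.95 ± 7.02 points. Where matches had to share at least 50% of each interval the means lay further apart, at 34.0% ± 5.54 in HOXA, 39.6% ± 8.97 in HOXD, 49.9% ± 15.0 in HOXB and 49.8% ± 21.6 in HOXC.

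Recurrence depended on the score, and in the whole lists too the class above percentile 90 recurred most. In replicate 1, 16 of 16 HOX sites above percentile 90 overlapped both other replicates, 117 of 132 from 10 to 90 and 17 of 38 below 10. In replicate 2 the numbers were 25 of 25, 85 of 140 and 22 of 79, and in replicate 3 they were 24 of 32, 84 of 194 and 30 of 88. The middle class stood above its own list in replicates 2 and 3, at 60.7% against 32.6% and 43.3% against 22.9%. In replicate 1 it stood at 88.6% against 90.8%. The class above percentile 90 lay nearer its list, at 100%, 100% and 75% against 99.4%, 93.0% and 73.8% in replicates 1, 2 and 3. In replicate 1 the lowest class stood below its list, at 44.7% against 65.8%. In replicates 2 and 3 it stood above, at 27.8% against 24.2% and 34.1% against 26.5%. None of these shares was adjusted for list size.

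By bases, 24025 nt of the 4 windows were called in any replicate, and 8140 nt, or 33.9%, in all 3. The share over the whole genome was 21.8%. Bases in all 3 cannot exceed those of replicate 1, which covered 9555 nt in the windows. Over the genome replicate 1 covered 9136750 of the 37541660 nt called in any replicate, and 8180360 nt were in all 3. The shares were not adjusted for this. HOXA had 2945 nt in all 3, or 35.5% of what was called in any, HOXB 2170 nt or 33.5%, HOXC 870 nt or 33.0% and HOXD 2155 nt or 32.6%. On the HOX strand alone the shares were 38.4%, 40.8%, 38.3% and 33.9% in the same order, and on the other strand 24.6%, 5.93%, 0% and 27.6%.

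Of 418 combined HOX sites, 129 (30.9%) overlapped all 3 replicate lists, against 22.9% of all combined sites. A further 81 (19.4%) overlapped 2 lists, against 30.0% of all combined sites, and 134 (32.1%) overlapped 1, against 36.2%. The remaining 74 (17.7%) overlapped none, against 11.0%, and had a median percentile of 3.01. Sites in all 3 lists numbered 39 of 129 in HOXA, 38 of 126 in HOXB, 16 of 58 in HOXC and 36 of 105 in HOXD. Their median percentile was 78.0, against 86.7 for such sites in the whole list. The combined list contains the reads of the replicates, so these counts are not independent of its scores. Overlap with all 3 lists also needs a replicate 1 site, and replicate 1 held 186 HOX sites and 186157 sites in all. The shares were not adjusted for this.

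The list limited by p was not a subset of the combined list. Of its 223 HOX intervals 19 had the same ends and strand there, and of all 373845 intervals 59905 (16.0%) did, so the lists were compared by overlap of at least 1 nt. An interval of the p-limited list overlapped 201 of 418 combined HOX sites, or 48.1% (95% Wilson interval 43.3 to 52.9), against 52.3% of all combined sites, which lies inside that interval. These were 65 in HOXA, 60 in HOXB, 28 in HOXC and 48 in HOXD. Of the HOX sites found in all 3 replicates 124 of 129 overlapped it, against 98.1% in the whole list, and of the others 77 of 289, or 26.6%, against 38.7%. In HOXA all 39 sites found in 3 replicates overlapped it, with 37 of 38 in HOXB, 15 of 16 in HOXC and 33 of 36 in HOXD.

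**Figure D3:**
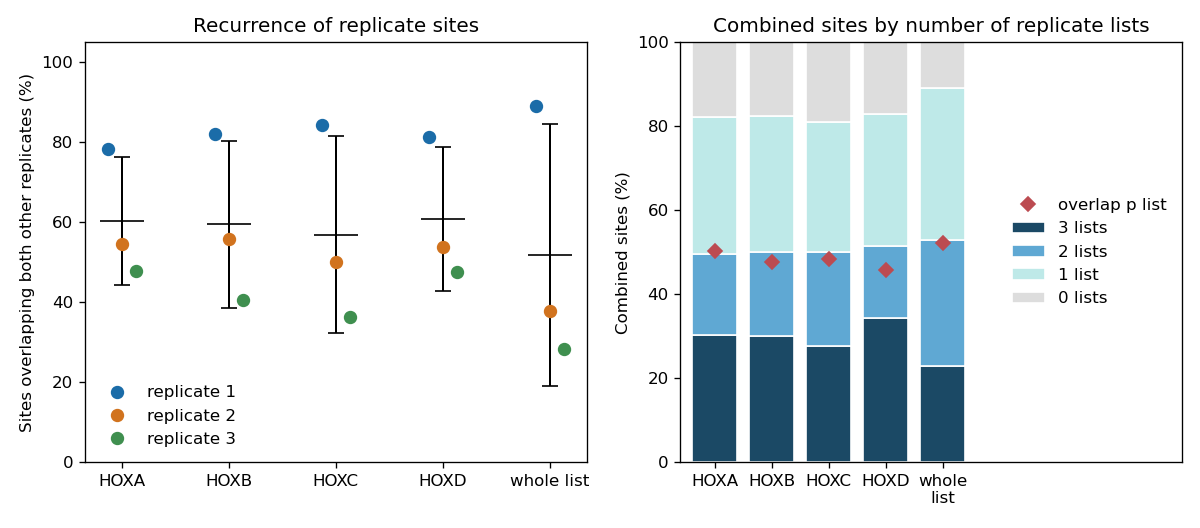
Left, percent of sites in each replicate that overlap a site of both other replicates by at least 1 nt, with mean ± SD. Right, combined sites by the number of replicate lists they overlap (stacked), and the percent that overlap the list limited by p (diamonds). Replicate 1 lies below its whole list in every cluster and replicates 2 and 3 above theirs, and the 3-list part is 27.6% to 34.3% in the clusters against 22.9%.

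Scores of the same HOX site were correlated between replicates, by rank somewhat more than those of all common sites in each pair of lists. Pearson's r was slightly lower for replicates 1 and 2 and higher for the other pairs. For replicates 1 and 2, which had 158 HOX sites in common, Pearson's r of the scores was 0.589 with a Spearman's rho of 0.611, where all common sites of these lists gave 0.602 and 0.570. For replicates 1 and 3 (155 HOX sites) r was 0.588 and rho 0.621, where all gave 0.561 and 0.522. For replicates 2 and 3 (203 HOX sites) r was 0.755 and rho 0.746, where all gave 0.704 and 0.658. These are descriptions across sites of the same cells, which share transcripts and are not independent.

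Along each cluster the recurrent bases were unevenly spread. In HOXA the fullest bin of 5 kb was chr7:27210001-27215000, with 530 nt called in all 3 replicates on the minus strand and 8, 7 and 8 sites in replicates 1, 2 and 3. Next came chr7:27145001-27150000 with 450 nt and 7, 4 and 6 sites. Together they held 39.0% of the recurrent bases of that strand. Minus-strand bins with recurrent bases numbered 15 of 24 in HOXA and lay between 0 and 110 kb.

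HOXB was lopsided. Its fullest bins adjoined each other, chr17:46630001-46635000 with 520 nt and 8, 6 and 7 sites, and chr17:46625001-46630000 with 285 nt and 5, 7 and 7 sites on the minus strand. From 125 kb to the end at 210 kb, which by gene order is the HOXB13 side, the minus strand had 0 sites in each replicate and 0 in the combined list. On the plus strand the same 85 kb had 3, 8 and 18 sites in replicates 1, 2 and 3 and 22 combined sites, with 50 nt called in all 3. Those 22 were most of the 31 plus-strand combined sites of the window. Without depth per library, the empty stretch does not show that no RNA was bound there.

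The fullest bins of HOXC lay in its upper part. They were chr12:54405001-54410000 with 185 nt and 3, 4 and 4 sites, and the adjoining chr12:54410001-54415000 with 160 nt and 2, 3 and 3 sites, both on the plus strand. They held 39.7% of the recurrent bases of that strand, and 11 of its 24 bins had any. In HOXD the fullest bins were chr2:176975001-176980000 with 295 nt and 7, 8 and 6 sites, and chr2:176995001-177000000 with 285 nt and 4, 6 and 6 sites on the plus strand, or 32.8% of the strand. The minus strand of HOXD had 185 nt at chr2:177035001-177040000 and 140 nt at chr2:176965001-176970000, with 5, 5 and 6 sites and 4, 4 and 5 sites.

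**Figure D4:**
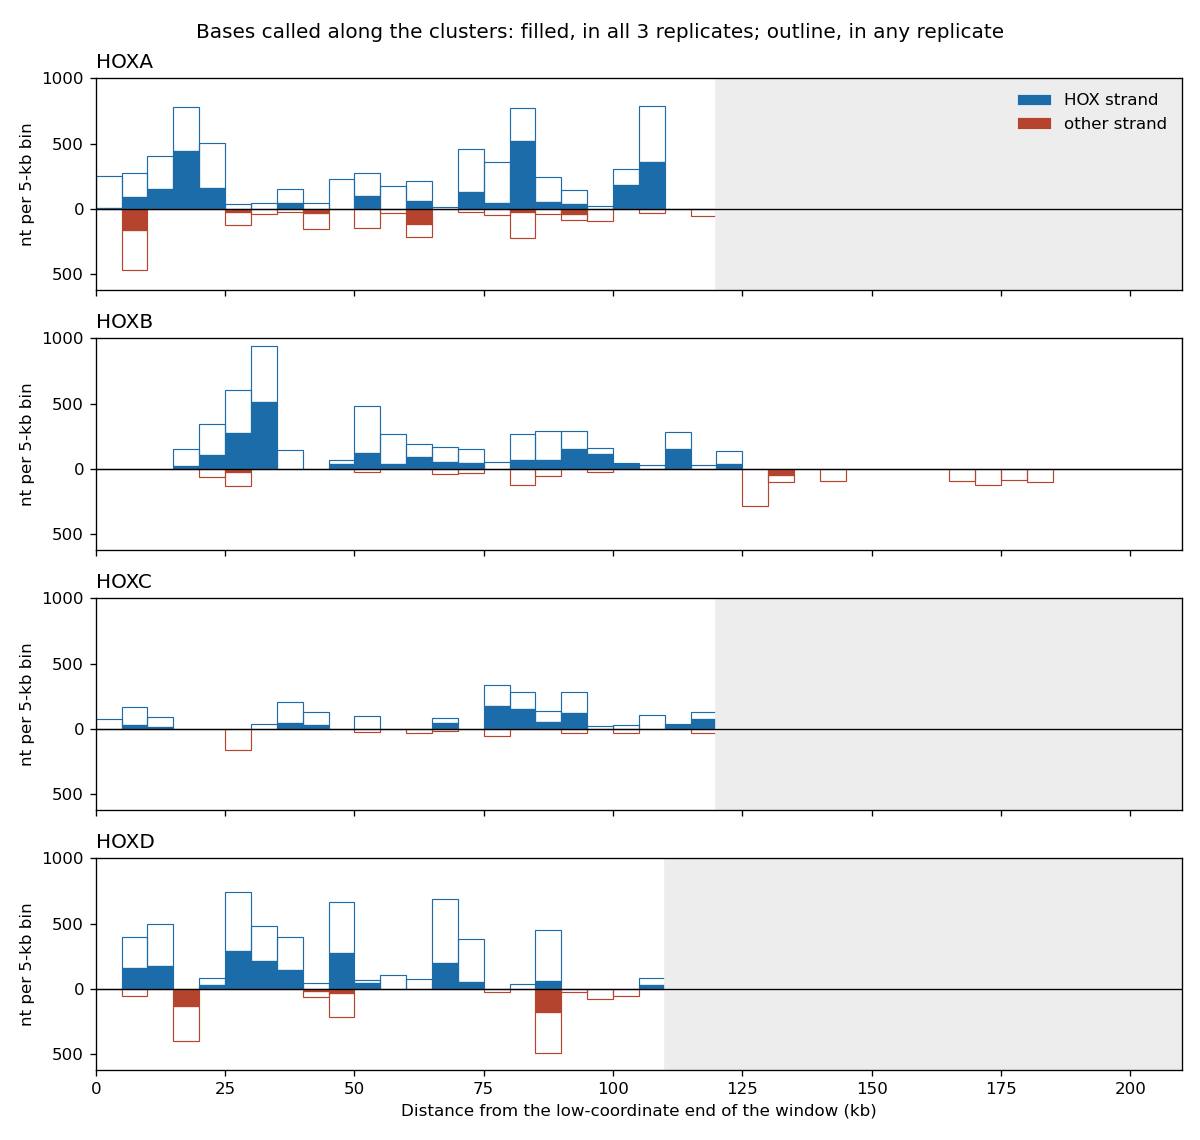
Bases called per 5-kb bin along each window, by distance from its low-coordinate end, with the HOX strand upward and the other strand downward. Filled bars are bases called in all 3 replicates and outlines bases called in any. Grey marks the part of the axis beyond a shorter window. The highest filled bars are 530 nt in HOXA and 520 nt in HOXB, and the upper 85 kb of HOXB hold no HOX-strand bar.

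The highest-scoring recurrent HOX site lay in HOXC. At chr12:54369871-54369935 on the plus strand, 65 nt wide, the combined LOD was 24.9, at percentile 100.0 of the list when rounded, and the replicates placed it at percentiles 100.0, 98.6 and 99.5 (mean 99.4 ± 0.69, SD, n = 3). The second in HOXC, chr12:54410986-54411100, had a combined LOD of 17.9 and percentiles of 98.4, 96.8 and 98.7. The third, chr12:54421636-54421715, had 16.1, with 59.4, 91.9 and 99.1. Replicates 1 to 3 placed the first and second alike, and the third was lower in replicate 1. The HOX-strand sites named here and for the other clusters were picked by combined score among sites in all 3 replicates. As the combined list holds the reads of the replicates, high percentiles in the replicates are partly given by that choice.

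In HOXD the leading site was chr2:177003076-177003145 on the plus strand, with a combined LOD of 19.6 and percentiles of 95.6, 97.1 and 99.6. The next was the 230-nt site at chr2:176996676-176996905, with 15.4 and percentiles of 94.9, 94.7 and 85.9, and then chr2:177055341-177055385 with 14.7 and 69.7, 93.4 and 91.0. The first stood high in all 3 lists, with a mean of 97.4 ± 2.06.

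In HOXB, chr17:46665106-46665210 on the minus strand led with a combined LOD of 19.1, but its percentiles were 43.1, 95.2 and 99.8, a mean of 79.4 ± 31.5. At chr17:46694881-46694940 the LOD was 17.8, with 66.2, 97.3 and 99.2. At chr17:46630111-46630220, inside the fullest bin, it was 16.8, with 93.8, 97.2 and 99.3, and of these 3 sites it varied least between replicates.

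In HOXA the leading site was chr7:27152491-27152585 on the minus strand, with a combined LOD of 18.0 and percentiles of 46.1, 99.3 and 99.1. The site at chr7:27152156-27152245, which lies within 1 kb of it, had 13.9 and showed the same order, with 42.5, 94.98 and 91.0. Between them in rank came chr7:27180711-27180810 with 17.2 and percentiles of 90.0, 85.7 and 95.9. Of the 12 sites named so far, 3 were in the lower part of the replicate 1 list and in the upper part of both others, 2 in HOXA and 1 in HOXB.

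On the other strand the highest score of each cluster was below that of the leading HOX-strand site. Of these 4 sites, that of HOXA was found in all 3 replicates, at chr7:27139316-27139405 on the plus strand, with a combined LOD of 14.2 and percentiles of 79.0, 96.6 and 86.3. In HOXB, chr17:46680826-46680895 had 12.98 and was found in replicates 2 and 3, at percentiles 27.4 and 99.2, and no interval of the p-limited list overlapped it. In HOXD, chr2:177048601-177048645 had 11.6 and was found in replicates 2 and 3, at 77.2 and 75.4. In HOXC, chr12:54406101-54406155 had 10.52 and was found in replicate 3 alone, at 94.8.

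The widest combined sites of HOXA, HOXB and HOXD were several times as wide as the median of 50 nt and were found in all 3 replicates. They were chr7:27236636-27237145 with 510 nt in HOXA, chr17:46630876-46631355 with 480 nt in HOXB and chr2:176959531-176959950 with 420 nt in HOXD. Their scores were at percentiles 86.3, 91.2 and 59.5 of the combined list, so width and score did not go together in the HOXD site. The widest of HOXC, chr12:54410676-54410835, had 160 nt and percentile 96.4, and also recurred in all 3.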

How the data were processed

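Interval lists of HuR immunoprecipitations from HEK293 cells were used, 1 for each of 3 replicates, grouped and numbered by their titles, and 2 for all replicates. The submitters' processing notes name TopHat2 2.0.8, cutadapt 1.0 and the build hg19. Each interval has a LOD score computed by the authors, all above 0, and 1 of the 2 lists for all replicates was limited by the authors at p 0.05, per its name, and has its own intervals and scores. How intervals and scores were made, how reads matching several HOX paralogs were placed, and the log base of the score were not given in the sources used here. Interval ends fall on a grid of 5 nt. Depth per library is unknown, so only list sizes are given.

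Sites were compared on the same strand in pandas 2.3.3 with numpy 2.4.6 and scipy 1.17.1 under Python 3.11.15. Sites matched where they shared 1 nt or more, and of several partners the longest overlap was used. Percentiles are mid-ranks within a list. Densities take the end of the last site as chromosome length. The code was tested on simulated intervals. The rule for named genes, written for genes and applied to sites, takes in each cluster the 3 highest combined LOD scores at sites in all 3 replicates on the HOX strand, the highest on the other strand, and the 2 fullest bins of 5 kb. Bins, 10-kb windows, score thresholds, overlaps and left-out replicates were fixed with earlier results of these data known, as were the windows and the 38 genes. Flanks, score classes, opposite-strand pairs, widest sites, transcript motifs, the own-chromosome ratio and the HOX-strand ratio were added after the files were seen. Sites per gene were not computed, for want of an hg19 annotation. Coordinates are 1-based on hg19.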

Additional observations from a re-analysis of the deposited data

How the results depend on the processing

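Of 140 alternative values for 20 results (5 measures in 4 clusters), 118 stayed within 1 SD of the replicates or, for overlap with the p-limited list, within the 95% Wilson interval, 22 moved and 0 reversed. With 3 replicates that spread is wide for density and recurrence, so staying within it says little. These counts do not cover the order of the clusters. For matching in both other replicates and for overlap with the p-limited list, no other setting kept the main order. The order of the HOX-strand share changed at LOD above 1, at LOD above 2 and without replicate 1. The density order changed only against the own chromosome. With only the HOX strand counted, both in the window and in the whole list, the density ratio was 9.97 in HOXA and 5.13 in HOXB. It was 4.00 in HOXC and 7.90 in HOXD. As the divisor then holds 1 strand of the list, these ratios are not on the scale of the main ones. Against the own chromosome the ratio on both strands was 1.54 in HOXB and 1.77 in HOXC. For sites of 30 to 60 nt the median percentile was 30.2 in HOXA, 24.7 in HOXB and 40.9 in HOXC, and with windows shortened by 10 kb at each end it was 44.6 in HOXC, which then stood above HOXA. The HOX-strand share of HOXD was 78.3% at LOD above 2 and 79.6% by bases covered. With at least 50% of each interval shared, matching in both other replicates was 34.0% in HOXA and 39.6% in HOXD, and with equal list sizes it was 41.3% in HOXD. Leaving out each replicate in turn, which changes the measure from both others to 1 other, gave 64.3% to 76.7% in HOXA, and the upper value came without replicate 1. Overlap with the p-limited list was 62.5% and 58.5% in HOXA and HOXD at LOD above 1, 73.0% and 69.6% at LOD above 2, and 38.8% and 31.4% where matches had to share 50% of each interval. For these, the cause was not tested. Unknown depth limits every statement on missing sites. No paired analysis was possible because no list analysed here gives the control samples' values.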
